A study of Mus musculus with 13 samples.

Results

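Caspases are the proteases that carry out apoptosis, and a small set of proteins decides when they are switched on or held back. The 8 genes described here are the caspases Casp2, Casp6, Casp8 and Casp9, the caspase-9 activator Apaf1 and the inhibitors of apoptosis Xiap, Birc2 and Birc3. They were chosen by name and found by Ensembl gene identifier among the 37991 genes of the deposited count table. All 8 were found, each as 1 row. The identifiers were ENSMUSG00000029863 for Casp2, ENSMUSG00000027997 for Casp6, ENSMUSG00000026029 for Casp8 and ENSMUSG00000028914 for Casp9, and the others are given with their genes.

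The study sequenced single B cells to ask how the transcripts of cells that grow after stimulation differ from those of cells that stay small. Naive B cells from the spleens of wild type C57BL/6 mice aged 6 to 8 weeks were cultured for 24 h with 250 nM CpG ODN 1668, a ligand of Toll-like receptor 9 (the protocol in the labels gives 250 ng/ml). Libraries were made from 5 small cells, called by their wells A2, C12, C7, F7, H1, and from 5 large cells, called C1, C3, E1, E3, G2, of which C3 was kept apart and not scored. One library of diluted bulk cDNA at 24 h (the positive control), 1 bulk library labelled 0 h and unstimulated, and 1 library of spike-in RNA without a cell completed the set of 13. The 0 h library is also listed with 250 nM CpG, which conflicts with its label. No mouse or culture is named for a cell, so a size group counts as 1 sample. The differences between the groups were therefore not checked on replicates, and no test is given.

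As background, caspases are made as inactive precursors. Death receptors on the cell surface recruit caspase-8, damaged mitochondria release cytochrome c, which assembles Apaf-1 and caspase-9 into the apoptosome, and both routes end in effector caspases that cut cell proteins. XIAP binds caspases directly, whereas cIAP1 and cIAP2, the products of Birc2 and Birc3, are ubiquitin ligases of the TNF receptor complex that favour NF-κB signaling and survival. In B cells, Toll-like receptor ligands activate NF-κB, and Birc3 is a known target of that factor.

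The 4 caspases have a shared active site, and the part of each coding sequence that encodes it is shown because it makes the family visible at the level of the transcript. Capitals mark the codon of the catalytic cysteine, which lies in the pentapeptide glutamine-alanine-cysteine-any residue-glycine. The sequences are the sense strand of mouse transcripts of the GRCm38 build.
Casp2: ttcttcatccaagcaTGTcgtggagatgag
Casp6: tttatcatccaggccTGTcggggtagccag
Casp8: tttttcattcaggctTGCcaaggaagtaac
Casp9: ttcttcatccaggccTGCggtggtgagcag
Over these 30 bases the closest pair, Casp2 and Casp9, had 23 identical bases, and the most distant pair, Casp8 and Casp9, had 18. The genes lie on chromosomes 6, 3, 1 and 4, respectively. No stretch of 50 bases was shared between the transcripts of any 2 of the 4 caspases, so reads of that length or more come from 1 of them only. Birc2 and Birc3, both on chromosome 9, were the 1 pair of the 28 that did share such stretches, and their longest common run, in the coding sequence, was 114 bases.
Birc2 and Birc3: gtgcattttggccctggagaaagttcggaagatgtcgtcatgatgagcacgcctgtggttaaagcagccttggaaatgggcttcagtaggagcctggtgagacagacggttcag
This run gave 65 shared stretches of 50 bases, 1.42% of those of Birc2 and 1.28% of those of Birc3. Reads from it could have been assigned to either gene. Exons of Casp9 also overlap those of Cela2a and Ctrc on the opposite strand, over 94 bases or 1.81% of its exon length, and the library kit does not mark strand.

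The count in a cell was multiplied by the spike-in factor of its library, and 100 was added, which gives the adjusted count. A gene was called on in a cell when its adjusted count was above 300. A gene with no read therefore has an adjusted count of 100. The number of reads needed to be on was 200 in C1 and 214 in A2, but 2005 in G2, since the factors ranged from 0.0998 to 1 among the 10 cells. Levels between genes were compared as CPM, the count scaled to a total of 1e+06 gene counts, per kb of exon. Intervals are exact, at 95%, and cover counting error only.

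Total gene counts were 3311235 to 6311782 in the 10 cells, 1740862 in the 24 h bulk library and 190 in the spike-in library, in which none of the 8 genes had a read. B cell markers (Cd79a, Cd79b, Ms4a1, Cd74 and H2-Ab1) together reached 3355 to 28258 CPM in the small cells and 5555 to 25184 CPM in the 4 scored large cells. In C3 they reached 782 CPM, with no read of Cd79a or H2-Ab1, so the values of C3 are given apart. The 5 T cell markers had no read in any cell, and the 5 myeloid markers reached 0 to 710 CPM in small and 0 to 1890 CPM in large cells. Both upper values came mainly from Adgre1, with 4096 reads in C12 and 10396 in G2. The plasma cell markers Sdc1 and Prdm1 reached 0 to 603 CPM in small and 0 to 721 CPM in scored large cells, nearly all of it Prdm1 in A2, C12 and G2. The part of these markers in the results was not tested. The library labelled 0 h had reads in 33107 genes, 31.6% of its counts in Gm10800 and Gm10801, and a Spearman rho of 0.857 between count and exon length across genes, against 0.177 to 0.347 in the cells. Its counts of the 8 genes lay between 15 and 45, or 3.38 to 6.39 counts per kb, whichever gene was read, and B cell markers such as Cd79a had 7 counts, so no change with stimulation is reported from it.

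Small and large cells overlapped in the level of each of the 8 genes. Of the 9 scored cells, 3 of the genes were on in 1, 2 were on in 2, 2 were on in 3 and Birc3 was on in 5, while 34.9% of all genes on in a scored cell were on in 1, 20.7% in 2 and 13.4% in 3, so this spread is near that of other genes. Xiap was the 1 member called higher in large cells, by a score (the share of large cells that were on minus that of small cells) of at least 0.5, and no member was called lower at -0.5 or less. Of the 6435 genes that any of the 9 scored cells had on, 5.83% were called higher and 1.88% lower, so the counts of 1 and 0 among 8 genes stand close to the background. The median log2 ratio of mean adjusted counts, large over small, was 0.17 for the 8 genes and 0.017 for all 6435. It was above 0 for 5 of the 8 genes, against 50.7% of all genes.

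**Figure D1:**
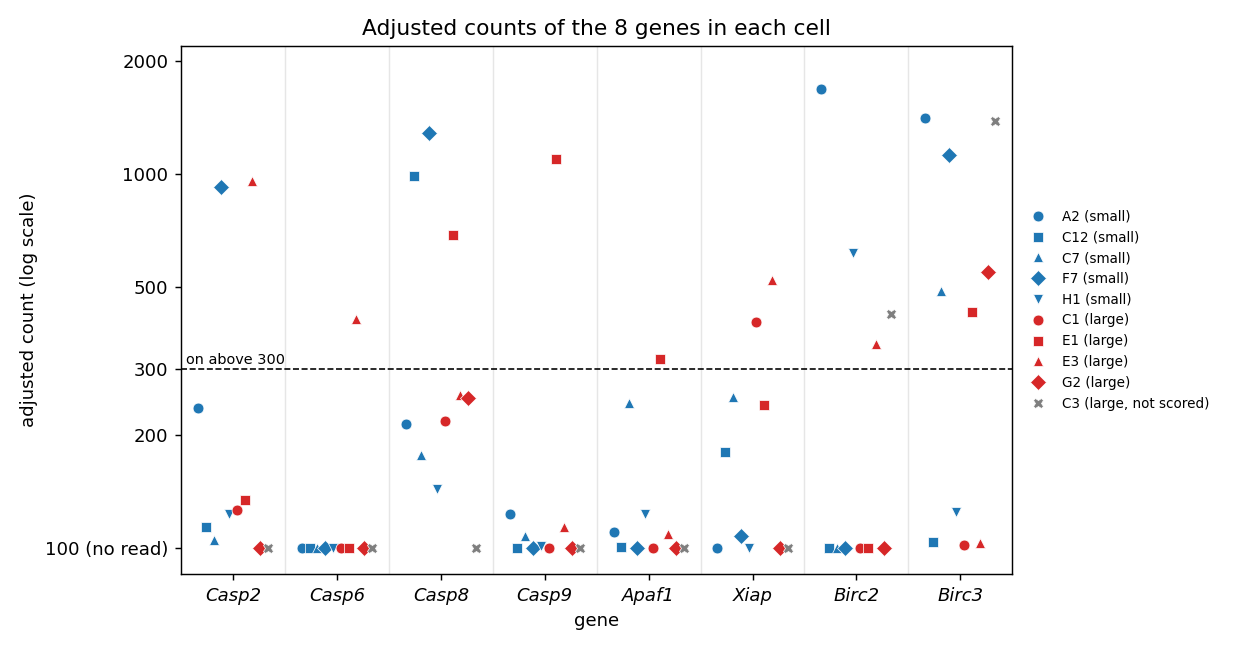
Adjusted count of each gene (log scale) in each of the 10 cells, with small cells in blue, scored large cells in red, C3 in gray and the threshold of 300 as a dashed line. Most points lie at or near 100, the value without a read, and points above the line come from both sizes for Casp2, Casp8, Birc2 and Birc3.

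Casp8, the initiator caspase of death receptors, was the most evenly expressed of the caspases and the only one with reads in all 9 scored cells. Among small cells it had 122 reads in A2, 2961 in C12, 262 in C7, 3204 in F7 and 151 in H1. Among large cells G2 had 1523 reads, E1 1320, E3 395, C1 118 and C3 none. The groups overlapped, with low and high levels in both. In CPM, Casp8 ranged from 23.4 in A2 to 518 in F7. It was on in C12 (adjusted count 990), F7 (1284) and E1 (687). G2 was off, with an adjusted count of 252, although it had more reads than E1, because of its small factor. The log2 ratio of large over small cells was -0.67, and -0.11 without F7, -0.36 without C12 and -1.21 without E1. The score was -0.15, and with the threshold lowered to 200 the score became 0.40.

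Casp2, an initiator caspase that responds to genotoxic stress, was read in 8 of the 9 cells but was abundant in only a pair of them, 1 of each size. Its reads were 146 in A2, 45 in C12, 17 in C7, 2226 in F7 and 80 in H1 among small cells, and 2163 in E3, 77 in E1 and 26 in C1 among large cells. G2 and C3 had none. F7 and E3 thus had nearly equal adjusted counts, 923 and 958, and every other cell was at 237 or less. The log2 ratio was 0.14 with a score of 0.05. It was -1.32 without E3 and 1.19 without F7, and between -0.082 and -0.063 without C12, C7 or H1, so its direction was not fixed.

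Casp9, the initiator caspase of the mitochondrial route, and Apaf1 (ENSMUSG00000019979), which forms the platform that activates it, were both on in E1 and in no other cell. Casp9 had 2241 reads in E1 and an adjusted count of 1096, while the other cells had 25 in A2, 26 in C7, 4 in H1, 35 in E3 and none in C12, F7, C1, G2 or C3. E1 held 94.9% of the summed CPM of Casp9 over the 9 cells. Its log2 ratio was 1.73, and -0.025 without E1. Apaf1 had 495 reads in E1 (adjusted count 320) and 488 in C7, where the adjusted count of 244 was below the threshold. In CPM, Apaf1 was higher in C7 (147) than in E1 (78.4), so its peak in E1 depends on the spike-in factors. In the other cells it had 11 reads in A2, 1 in C12, 80 in H1, 22 in E3 and none in F7, C1, G2 or C3. Its log2 ratio of 0.21 became -0.40 without E1. Across the 10 cells the log2 adjusted counts of Casp9 and Apaf1 had a Pearson r of 0.77. This is a description, since both genes have their highest value on that scale in E1.

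Casp6, an effector caspase that cleaves nuclear lamins, was found in a single cell. E3 had 779 reads of it (130 CPM, adjusted count 409), and the other 9 cells had none. The 4 scored large cells together had 779 reads (interval 725 to 836), and the 5 small cells 0, which allows up to 3.69. The log2 ratio of 0.83 and the score of 0.25 both became 0 without E3.

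Among the inhibitors, Xiap (ENSMUSG00000025860), which blocks caspases by direct binding, gave the 1 call. It was on in C1 (302 reads, adjusted count 402) and E3 (1063 reads, adjusted count 522) of the large cells. E1 had 316 reads (adjusted count 241) and G2 and C3 had none. Of the small cells, C12 had 269 reads (adjusted count 181), C7 had 518 (adjusted count 253) and F7 had 21, while A2 and H1 had none. Small and large cells overlapped, and C7 had more reads and a higher CPM (156) than C1 (74.7) but was off. The share of cells on was 2 of 4 large cells (interval 6.76 to 93.2%) and 0 of 5 small cells (up to 52.2%). The log2 ratio was 1.09, and stayed above 0, at 0.74 to 1.39, when any 1 cell was left out. The call at 0.5 was lost, at a score of 0.33, without C1 or without E3, and at 0.15 when a gene was on from 10 reads.

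Birc2 (ENSMUSG00000057367), which encodes cIAP1, was read in 4 cells and not at all in the other 6. Its reads were 1702 in A2 and 1783 in H1 among small cells, 631 in E3 among large cells, and 1586 in C3. All 4 were on, with adjusted counts of 1692, 616, 350 and 422. Each cell thus had either at least 631 reads of Birc2 or none. The log2 ratio was -1.68 with a score of -0.15, and it moved to -0.49 without A2, whose factor of 0.935 was the largest among the small cells.

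Birc3 (ENSMUSG00000032000), which encodes cIAP2, was the only member with reads in all 10 cells and the one on in most of them. Small cells had 1402 reads in A2, 12 in C12, 1305 in C7, 2770 in F7 and 86 in H1. Large cells had 4483 in G2, 738 in E1, 7 in E3 and 2 in C1, and C3 had 6334, the most of any cell. It was on in A2, C7, F7, E1, G2 and C3, with adjusted counts of 428 to 1411. Both sizes held cells with high and with very low levels. The log2 ratio was -1.14 with the spike-in factors and 0.026 when cells were scaled by their library totals, so its direction was not fixed. The mean CPM was 226 in small and 230 in large cells. All 5 small cells had at least 10 reads of Birc3 but only 2 of the 4 large cells did, which gave a score of -0.5, the only call of a lower member under any of the settings tried.

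**Figure D2:**
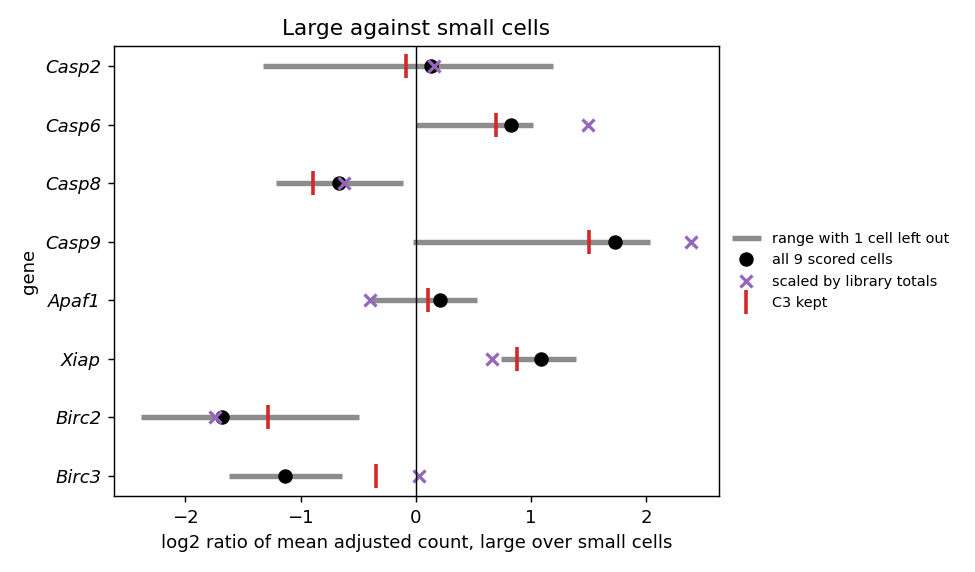
Log2 ratio of mean adjusted count, large over small cells, for each gene, with the value from the 9 scored cells as a black point, the range when 1 cell is left out as a gray bar, scaling by library totals as a purple cross and C3 kept as a red line. The bars of Casp2, Casp9 and Apaf1 cross 0, that of Casp6 ends at 0, and the library totals move Birc3 and Apaf1 across 0.

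Per kb of exon, the mean level over the 9 cells was highest for Casp8 (66.7 ± 69.9 CPM per kb, SD, n = 9 cells) and Birc3 (45.5 ± 55.5). Birc2 (18.4 ± 30.8), Casp2 (12.5 ± 21.9) and Casp9 (8.00 ± 22.6) followed. Xiap (5.97 ± 7.23), Apaf1 (3.03 ± 5.72) and Casp6 (2.59 ± 7.76) were lowest. For all 8 genes the SD was larger than the mean, and no neighbours in this order differed beyond their spread between cells.

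The members that were on differed from cell to cell, also among cells of 1 size. E1 and E3 had the most members on, 4 each, but not 1 in common: Casp8, Casp9, Apaf1 and Birc3 were on in E1, and Casp2, Casp6, Xiap and Birc2 in E3. Of all genes on in a scored cell, 38.2% were on in E1 and 36.1% in E3. How many of these the 2 cells shared was not counted, so whether separate sets are unusual is not known. F7 had 3 on (Casp2, Casp8 and Birc3), A2 and C3 had 2 (Birc2 and Birc3 in both), and the other 5 cells had 1. The number did not follow the number of all genes on, which was 3819 in A2, 2455 in E1, 2320 in E3, 2134 in F7 and 656 in G2. Casp8 and Birc2 were on in 3 and 4 cells and never in the same one, and Xiap and Birc3, on in 2 and 6 cells, were not on together either. Other pairs, such as Casp8 with Xiap and Casp9 with Birc2, were also never on in the same cell. The same held for pairs of caspases, such as Casp2 with Casp9 and Casp6 with Casp8. How often pairs of other genes, on in as few cells, share no cell was not counted. Being off was not always absence of reads. Where Birc2 was on, Casp8 had 122 reads in A2, 151 in H1, 395 in E3 and none in C3. Birc2 had no read where Casp8 was on. Where Birc3 was on, Xiap had 518 reads in C7, 316 in E1, 21 in F7 and none in A2, G2 or C3. Birc3 had 2 reads in C1 and 7 in E3, where Xiap was on. With so few cells these combinations are given as a description, and no exclusion between members is read from them.

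**Figure D3:**
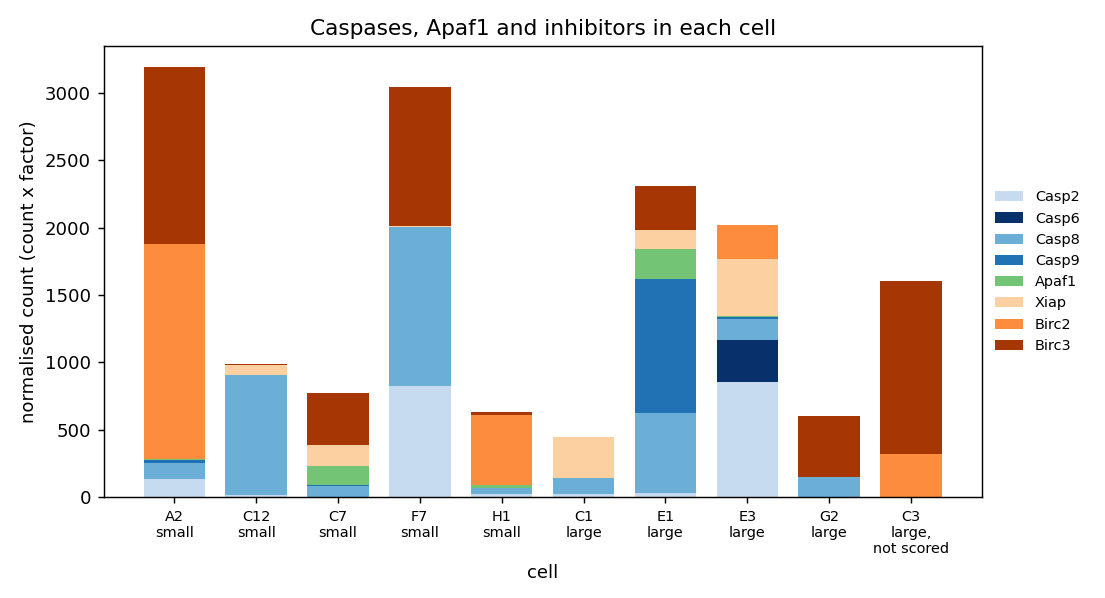
Normalised counts (count times factor, before 100 is added) of the 8 genes stacked for each cell, with caspases in blue, Apaf1 in green and inhibitors in orange to brown. Inhibitors make up most of the bar in A2, C7, H1, C1, G2 and C3, and caspases most of it in C12, F7, E1 and E3.

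Caspases and inhibitors were also set against each other within each cell, where depth and factor cancel. Of the summed reads of the 4 caspases and 3 inhibitors, inhibitors took 91.4% in A2, 8.55% in C12, 85.7% in C7, 33.9% in F7 and 88.8% in H1. In large cells they took 74.6% in G2, 67.9% in C1, 33.5% in E3 and 22.5% in E1. Both sizes thus contained cells with mostly caspase reads and cells with mostly inhibitor reads. The median was 85.7% in the small and 50.7% in the large cells, with overlapping ranges. In C3 it was 100%, with 7920 inhibitor reads and none of the 4 caspases or Apaf1.

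The positive control, diluted cDNA of many cells at 24 h, did not show the same genes as the single cells. Birc3 (497 reads, 285 CPM, interval 261 to 312) and Casp2 (227 reads, 130 CPM, interval 114 to 149) were its most abundant members. Their means over the 9 cells, 228 ± 278 and 88.3 ± 154 CPM (SD), were below these intervals. The medians of the 9 cells were lower still, at 117 CPM for Birc3 and 12.2 CPM for Casp2. Casp9 and Xiap had 14 and 12 reads, 8.04 and 6.89 CPM, against means of 41.6 ± 118 and 56.5 ± 68.5 CPM. Casp8, although read in each of the 9 cells, had no read in the bulk library. Its mean of 193 ± 202 CPM was 112 times the 1.72 CPM that 3 reads of the bulk library would give. Even its lowest cell, at 23.4 CPM, lay above that floor. Birc2, Apaf1 and Casp6 were also without a read there, with means 48.8, 15.9 and 8.39 times that floor. Such absence was common: 45.5% of the genes on in a scored cell had no read in the bulk library. Among the 1424 genes read in all 9 cells it was 9.27%, or 132 genes, Casp8 among them. The bulk library is a single one, with 1740862 gene counts in 5186 genes, and its members were all off on the adjusted scale, where 3323 reads would have been needed. In bulk RNA, fewer cells with a transcript and less of it in each cell cannot be told apart. Whether the dilution of this library removed transcripts was not tested.

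**Figure D4:**
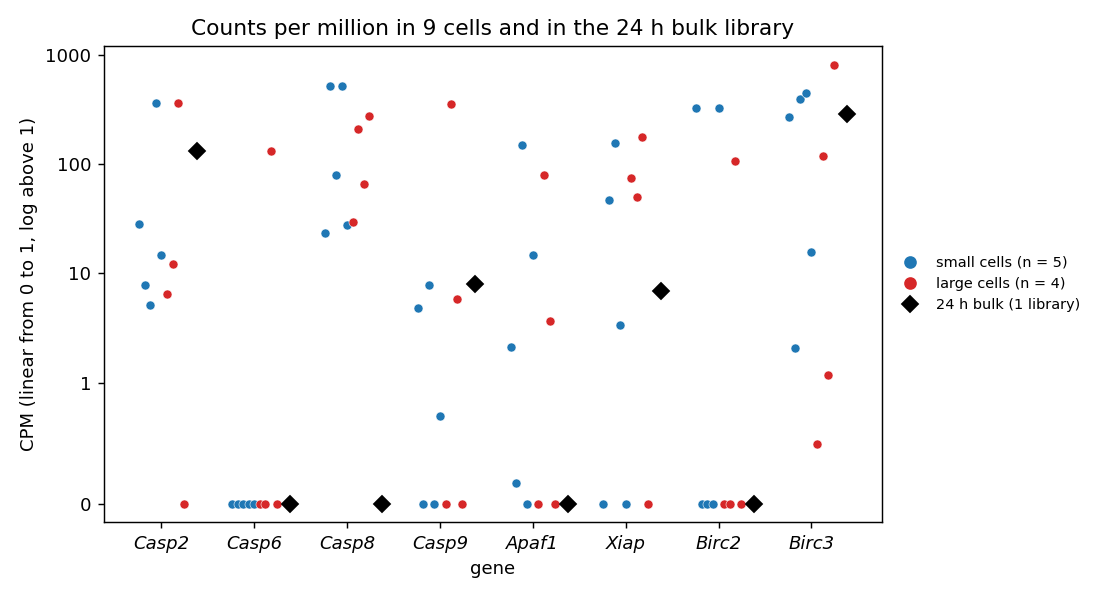
CPM (linear from 0 to 1, logarithmic above) of each gene in the 5 small cells (blue), the 4 scored large cells (red) and the 24 h bulk library (black diamonds). The bulk library is at 0 for Casp6, Casp8, Apaf1 and Birc2 and lies within the range of the cells for the other 4 genes.

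The wider apoptosis list held 33 further genes around these 8, and 21 of them were on in some scored cell. Bid, which links death receptors to mitochondria once caspase-8 has cut it, and Parp1, a DNA repair enzyme that effector caspases cleave, were called higher in large cells, 2 of 21 against the 5.83% of all genes, and none was called lower. Bid had 5072 reads in G2, 2843 in E1, 1264 in C1 and 812 in E3, at most 47 in a small cell and none in C3. Parp1 was on in C1 (348 reads) and E3 (813 reads), the same 2 cells in which Xiap was on, and its log2 ratio was 1.11. Its score of 0.5 fell to 0.33 without C1 or without E3, whereas that of Bid stayed at 1 whichever cell was left out. G2, with 1997 reads of Parp1, stayed just below the threshold at an adjusted count of 299. The median log2 ratio of the 21 genes was -0.51.

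By role, the list's genes with the largest ratios of either sign were mostly on in 1 or 2 of the 9 cells, where the shares of all genes given above are also highest. Aifm1, which encodes a mitochondrial flavoprotein released in cell death, was on in A2 and F7 (log2 ratio -1.75). Fas, the death receptor that recruits caspase-8, was on in A2 and H1 (log2 ratio -1.30), the same 2 small cells that expressed Birc2. Naip5, another gene with the BIR domains that define this inhibitor family, was on in E1 alone (log2 ratio 1.28). No list gene was on in 7 or more of the 9 cells, which held for all but 8.72% of the genes on in a scored cell.

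For the 3 members on in at least 3 cells, the genes with the most similar pattern over the 10 cells were sought among 2950 genes on in at least 3 cells, by Pearson r of the log2 adjusted counts. Haus8 (0.91) and Tars2 (0.87) were nearest to Casp8, Nbn (0.98) and Nt5c3 (0.95) to Birc2, and Riok3 (0.87) and Ccr7 (0.83) to Birc3. Nbn was on in the same 4 cells as Birc2. With 10 cells and so many genes compared, such values describe these cells only.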

How the data were processed

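According to the methods and the labels, single cells were caught, imaged and lysed on a Fluidigm C1 chip, cDNA was amplified with the SMARTer kit, and libraries made with Nextera XT were sequenced on an Illumina HiSeq instrument. STAR was the authors' aligner, run against mouse build m37 with Ensembl genes, and they deposited whole-number read counts per gene, with no normalization. For STAR's version and the tool that counted reads, nothing is given in the sources used here. Also deposited by the authors was a spike-in factor per library, a score with no fixed range that was made from a log-log fit of spike-in reads to their concentrations. A further 26 columns of per-sample values were not used, nor were the authors' tables of correlations, expression scores, pathways and motifs.

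Adjusted counts, scores and log2 ratios were computed here from counts and factors, with the constant of 100, the threshold of 300 and the score limits of 0.5 and -0.5 of the methods, for 5 small and 4 large cells. The well C3 was not scored, as in the methods. No p-value, standard error or count model over cells was computed, since each size group is 1 sample. The score was run on simulated counts with Poisson error only, which do not have the spread between cells seen here. Intervals are exact Poisson or binomial at 95%, and the floor is 3 counts. Depth was 3311235 to 6311782 gene counts per cell. Gene symbols (32919 of 37991), exon lengths and transcripts came from GENCODE for GRCm38, matched by Ensembl identifier, and no coordinates are given because the authors' build differs. Coding sequences were taken as the longest open reading frame of a gene's protein-coding transcripts.

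The 8 genes, the list of 33 further genes and the markers were chosen with earlier results of these data known. Named genes were the 8, the listed genes that were called, on in at least 7 of the 9 cells or largest in ratio in their group, and the 2 genes most like each member on in at least 3 cells. Some listed genes and a marker are not reported here. Alternatives were other thresholds, 10 reads as the threshold, library totals, a constant of 10, C3 kept and each cell left out. The work was done in Python 3.11.15 with Biopython 1.88, scipy 1.17.1, numpy 2.4.6, matplotlib 3.10.9 and pandas 2.3.3.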

Additional observations from a re-analysis of the deposited data

Results flagged for a closer look

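Within a size group, 8 of the 15 sets of adjusted counts examined (8 genes in 5 small and 4 scored large cells, less Casp6 in small cells, where all were at 100) had 1 cell separated from the others by Dixon's 95% criterion. Chance gives about 1 in 20 where values are normally distributed, which counts of this kind are not. Of the 8, 6 were in large cells, all in E1 or E3.

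In E3, Casp2 stood at 958 with the next large cell at 134, Casp6 at 409 with the others at 100, and Birc2 at 350 with the others at 100. In E1, Casp8 stood at 687 with the next at 257, Casp9 at 1096 with the next at 114, and Apaf1 at 320 with the next at 109. Among small cells, Casp2 in F7 stood at 923 with the next at 237, and Apaf1 in C7 at 244 with the next at 123. E1 and E3 had 6311782 and 5989527 gene counts and factors of 0.445 and 0.397, against factors of 1 in C1 and 0.0998 in G2. The part of depth and factor in the flagged values was not tested.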

How the results depend on the processing

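The call of Xiap was the single call among the 8 genes, and it was held in 9 of 15 alternatives. Members called higher fell from 1 to 0 with the threshold at 500, at 10 reads, with library totals and with C3 kept, and ranged from 0 to 1 when 1 cell was left out (0 without C1 or E3). Members called lower were 1 at 10 reads (Birc3) and 0 otherwise. Of the 33 further genes, 2 were called higher. The number was 1 (Bid, with Parp1 lost) with the threshold at 500, with library totals or with C3 kept. At 10 reads it stayed at 2, but Parp1 was lost there too, at a score of 0.2, and another listed gene was called. With a cell left out it was 1 to 3. As lower, 0 of the 33 were called, 1 with the threshold at 200 or at 10 reads, and 0 to 2 with a cell left out. Over all genes 375 were called higher, 53 with C3 kept and 121 (without C1) to 783 (without A2) with a cell left out, and 121 were called lower, 351 at 10 reads, 234 with library totals and 88 (without G2) to 542 (without C7) with a cell left out.

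The median log2 ratio of the members on in a scored cell, 0.17, was -0.27 with the threshold at 500 (6 members), 0.094 with library totals, 0.37 with a constant of 10, 0.012 with C3 kept and -0.54 (without E3, 7 members) to 0.47 (without F7) with a cell left out. Casp8, Xiap and Birc2 kept the sign of their ratio under all 12 alternatives that change it, Casp6, Casp9 and Birc3 under 11, Apaf1 under 10 and Casp2 under 7. No paired analysis was possible because the labels number no replicates. With 1 sample a group and 9 scored cells, a difference in the share of cells on has an interval that covers most of the range, so absence of a call does not show equal expression. The causes of these changes were not tested.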

Other observations

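The cell kept apart, C3, differed from the others in these genes as well as in its low B cell markers. It had the highest CPM of Birc3 (1534, against at most 802 in the other 9 cells) and of Birc2 (384, against at most 327), and no read of Casp2, Casp6, Casp8, Casp9, Apaf1 or Xiap. Its 3 detected myeloid markers reached 472 CPM, nearly all of it Adgre1 (1868 reads). Among the scored large cells only G2 was higher, at 1890 CPM, and the others were at 0 to 31.2 CPM. Among the small cells C12 was higher, at 710 CPM, and the others were at 0 to 220 CPM. The 24 h bulk library reached 724 CPM, so this level was not particular to C3. C3 had no read of a T cell or plasma cell marker. Reads fell in 3519 genes in C3, the fewest of the 10 cells, and whether its pattern reflects another cell type or its own quality was not tested.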
